A study of Homo sapiens with 6 samples.

Results

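Dense clusters of KRAB zinc finger genes lie on human chromosome 19 from 19.8 to 24.2 Mb and from 52.0 to 58.5 Mb of GRCh38, and their chromatin accessibility was followed in K562 cells through phorbol ester treatment. The members are the sites of the authors' table whose midpoint lies in either stretch: 630 of 181135 sites, of which 97 lie in the first stretch and 533 in the second. Sites no more than 1 kb from the start or end of a coding gene (gene-end sites, 213) were separated from the others (417), and both were set beside the other 5575 sites of chromosome 19. Accessibility was measured by ATAC-seq, in which a transposase cuts open chromatin and the reads over a site count how often it was cut. K562 is an established erythroid-like human leukaemia line. Cells labelled wild type received 25 nM of the phorbol ester PMA, an activator of protein kinase C that moves K562 cells towards a megakaryocyte-like state, for 0, 6 or 72 h, with 2 libraries at each time.

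KRAB zinc finger proteins form the largest family of human transcription factors. An array of C2H2 fingers reads the DNA, often inside a transposable element, and the KRAB domain recruits TRIM28 (KAP1), which brings the histone methyltransferase SETDB1 and HP1 proteins and lays down H3K9 trimethylation. The genes arose by tandem duplication, so neighbours resemble each other in sequence. Their bodies are themselves covered by H3K9 trimethylation in many cells.

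The libraries held 12258890 to 35548737 counts over all sites, and 66577 to 181710 in the cluster sites. Median counts per gene-end site of the clusters ran from 111 to 314, and per site away from gene ends from 21 to 91, so the second class is measured with more counting error. Of the 9 erythroid genes checked against the label, 8 had a peak at a gene end in both 0 h libraries, and so did CD3E and LYZ, 2 of 5 lymphoid and monocyte genes (15.7 and 12.9 CPM at 0 h), whose part in the results was not tested. Of 8 megakaryocyte genes, 5 had a site at a gene end, and all 5 had a peak in both 0 h libraries. At 72 h against 0 h, 3 of the 5 were called lower and 1 higher, with a median log2 fold change of -0.58. Of the 9 erythroid genes 7 were lower and 1 higher (median -1.58). Over the genome 68.7% of gene-end sites were lower and 12.3% higher. The labels do not say whether the 2 libraries of a time came from separate cultures, so p-values measure the spread between these libraries, which may be technical. In bulk libraries, a site that closes a little in every cell and one that closes in some cells cannot be told apart. Read filters are not given in the sources used here, and reads from near-identical copies among the zinc finger, LILR and KIR genes may be split or lost.

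The first stretch held 22.05 sites per Mb and the second 82.0, against 116.9 in the rest of the chromosome. Gene-end sites made up 33.81% of the cluster sites and 23.59% of the rest. The first stretch has 37 protein-coding genes in the RefSeq table, of which 35 are zinc finger genes. The second has 218, of which 107 are zinc finger genes and the others include the leukocyte receptor complex, NLRP genes and housekeeping genes.

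The starts of the first stretch carry a shared promoter. RefSeq promoter entries (GRCh38.p14) were found for 27 of its 35 zinc finger genes and for 92 of the 107 in the second stretch, and the 250 bases before the start were read. Those of the 4 gene-end sites with the highest 0 h signal in the first stretch, and that of ZNF91, are printed below to show the common layout, with ZNF274 of the second stretch for contrast. Capitals mark CCAAT boxes and the string GGCTTCCGG, and in ZNF274 the ETS-type string CTTCCGG. The CCAAT box, its longer form CCAATCAG and the string GGCTTCCGG were chosen as motifs after the sequences had been seen, and not every promoter holds each of them. The entries lie at chr19:19900696-19900945 (ZNF93, plus strand), chr19:21020407-21020656 (ZNF430, plus), chr19:21081953-21082202 (ZNF714, plus), chr19:21141790-21142039 (ZNF431, plus), chr19:23395472-23395721 (ZNF91, minus) and chr19:58182811-58183060 (ZNF274, plus).
ZNF93: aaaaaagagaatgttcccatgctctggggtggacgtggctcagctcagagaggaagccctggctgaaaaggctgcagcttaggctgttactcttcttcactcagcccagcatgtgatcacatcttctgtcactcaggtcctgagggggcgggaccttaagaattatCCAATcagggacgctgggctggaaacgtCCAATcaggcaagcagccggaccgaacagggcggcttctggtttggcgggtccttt
ZNF430: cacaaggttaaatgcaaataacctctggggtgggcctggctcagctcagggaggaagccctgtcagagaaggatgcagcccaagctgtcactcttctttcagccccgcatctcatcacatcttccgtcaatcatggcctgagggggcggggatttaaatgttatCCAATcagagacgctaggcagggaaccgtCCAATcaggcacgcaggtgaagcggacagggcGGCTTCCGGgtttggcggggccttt
ZNF714: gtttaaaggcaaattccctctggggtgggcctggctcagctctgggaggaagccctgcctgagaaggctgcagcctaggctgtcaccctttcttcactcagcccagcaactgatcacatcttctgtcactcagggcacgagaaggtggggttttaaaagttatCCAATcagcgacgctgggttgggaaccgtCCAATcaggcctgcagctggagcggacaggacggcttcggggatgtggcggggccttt
ZNF431: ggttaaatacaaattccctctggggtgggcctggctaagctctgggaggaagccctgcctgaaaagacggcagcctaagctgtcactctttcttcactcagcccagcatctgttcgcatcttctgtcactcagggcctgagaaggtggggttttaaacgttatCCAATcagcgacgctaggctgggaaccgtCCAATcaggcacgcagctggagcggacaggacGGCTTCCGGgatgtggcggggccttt
ZNF91: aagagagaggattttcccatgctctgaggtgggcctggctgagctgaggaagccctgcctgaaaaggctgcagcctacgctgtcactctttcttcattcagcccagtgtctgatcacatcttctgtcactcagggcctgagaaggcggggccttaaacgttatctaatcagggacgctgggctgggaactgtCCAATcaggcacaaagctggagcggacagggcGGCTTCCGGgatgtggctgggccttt
ZNF274: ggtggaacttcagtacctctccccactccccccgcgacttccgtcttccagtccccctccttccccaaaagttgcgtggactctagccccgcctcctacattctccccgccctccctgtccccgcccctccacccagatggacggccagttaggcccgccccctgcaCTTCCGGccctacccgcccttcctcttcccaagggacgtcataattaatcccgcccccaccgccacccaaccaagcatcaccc

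The 5 promoters of the first stretch were 78.5% to 92.0% identical to each other in pairs and 40.2% to 42.4% identical to that of ZNF274. CCAATCAG, on either strand, occurred in all 27 promoters of the first stretch, in 2.17% of those of the second, and in 5.04% of 15842 protein-coding promoters of the same length. Among the zinc finger promoters of the rest of chromosome 19 the share was 25.5%. GGCTTCCGG, which overlaps the ETS string CCGGAAG read on the other strand, occurred in 70.4% of the first stretch and in 1.37% of all promoters. CCGGAAG occurred in 70.4% of the first stretch, 34.8% of the second and 11.7% of all. The AP-1 string TGANTCA was in none of the 27, in 9.78% of the second stretch and in 5.0% of all. The median number of CG dinucleotides was 8 in the first stretch, 18.5 in the second and 17 over all promoters. A match says only that the letters are there, and its absence says nothing of the factor.

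Ends of zinc finger genes lost accessibility early. Of the 116 gene-end sites whose nearest gene was a zinc finger gene, 79 had a call for loss at 6 h and 2 for gain (both against 0 h), and by 72 h loss was called at 99 and gain at 3, by edgeR's quasi-likelihood test at a Benjamini-Hochberg adjusted p under 0.05. Among the 177759 sites tested genome-wide, loss was called at 16.8% and gain at 23.4% by 6 h (40.1% in all), and loss at 29.2% and gain at 38.2% by 72 h (67.4% in all). Gene-end sites in general fell: over the genome 36.2% were lower at 6 h and 68.7% at 72 h. The shares for the zinc finger ends of the clusters were 68.1% and 85.3%, and all 213 gene-end sites of the clusters gave 116 losses with 13 gains at 6 h and 160 losses with 18 gains at 72 h. Both comparisons share the 0 h libraries.

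The fall at zinc finger ends can be seen in each library. The median over the 116 sites was 19.9 and 18.4 CPM (counts scaled to a common library size) at 0 h, 12 and 12.6 at 6 h, then 9.91 and 10.5 at 72 h. All 4 treated libraries lay below both 0 h libraries, and most of the drop was present by 6 h. Their log2 fold changes had medians of -0.65 (6 h) and -1.09 (72 h), with interquartile ranges from -0.88 to -0.48 and from -1.32 to -0.86. Over all tested sites the medians were 0.05 and 0.29. The size of the fall depends on how libraries are scaled. With scaling factors from the sites that had a peak in all 6 libraries, the medians became -0.35 and -0.12, with 31 and 13 sites lower and 5 and 11 higher, while the median of all sites rose to 0.35 and 1.26. Set against the median of all sites, the zinc finger ends were lower under each of the 14 fits tried, by 0.57 to 0.77 at 6 h and by 0.48 to 1.44 at 72 h. A scaling factor per library shifts all sites alike and cancels in such a difference. Fits that differ only in these factors were thus bound to give nearly the same value, and the 14 fits are not separate checks. Loess offsets, which vary with the level of signal, gave 0.57 and 0.48.

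Taken over all levels of signal, other gene ends had smaller median changes at 6 h. Ends of genes that are not zinc finger genes in the rest of the chromosome (1200 tested) changed by a median of -0.41 by 6 h and -1.24 by 72 h on the log2 scale. In the clusters themselves the 97 ends of other genes gave -0.39 and -1.05, with 37 and 61 sites lower and 11 and 15 higher. From 6 h to 72 h the zinc finger ends of the clusters moved by -0.36, against -0.78 for other ends of the clusters and -0.82 for other ends of the rest. In that comparison, where 20.9% of all tested sites were called lower and 22.1% higher (42.9% in all), 31 of 116 zinc finger ends of the clusters were lower and 3 higher, 51 of 97 other ends were lower and 8 higher, and 759 of 1200 other ends of the rest were lower. Zinc finger ends outside the clusters (114) gave -0.56 at 6 h, -1.005 at 72 h and -0.45 between the treated times. Across the 14 fits the zinc finger ends of the clusters were lower than the other ends of the rest by 0.17 to 0.34 at 6 h, and moved by 0.34 to 0.54 more towards a gain between 6 h and 72 h. A scaling factor per library cancels in these differences too. The zinc finger ends' own direction between 6 h and 72 h was not stable: it was 0.001 with total counts, 0.11 with loess offsets and 0.31 with factors from sites with a peak in all libraries, where losses and gains numbered 10 and 7, 1 and 8, and 4 and 21. With the last of these scalings the other ends of the clusters gave 10 losses with 15 gains at 6 h and 30 with 31 at 72 h.

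Shares of the chromosome's counts, which need no scaling between libraries but are relative to the chromosome 19 total, were also read in each library. Zinc finger ends of the clusters took 3.94% and 3.86% of the chromosome 19 counts at 0 h, 3.28% and 3.04% at 6 h, then 3.17% and 3.41% at 72 h. The 0 h libraries stood above the others, and the 6 h and 72 h libraries overlapped. Other ends of the clusters took 3.83% and 3.85%, then 3.41% and 3.33%, then 2.75% and 2.77%, so here each time point was separate from the others. Other ends of the rest fell from 45.1% ± 0.495 (SD, n = 2) to 40.9% ± 0.919 and 33.4% ± 0.707. Zinc finger ends of the rest went from 3.54% ± 0.106 to 2.96% ± 0.106 and 2.98% ± 0.0707. With 2 libraries against 2, an exact two-sided permutation test cannot give a p below 0.333, so these shares were not tested. Medians within a library gave another order inside the clusters. The median log2 CPM of zinc finger ends exceeded that of other ends of the clusters by 1.697 and 1.548 at 0 h, 1.235 and 1.303 at 6 h, then 1.073 and 1.095 at 72 h, so by this measure the zinc finger ends fell more than the other ends after 6 h too. Over the other ends of the rest the excess was 0.727 and 0.571, then 0.282 and 0.234, then 0.495 and 0.620, lowest in the 6 h libraries. The slower late fall of zinc finger ends against other ends of the clusters thus depended on the measure, and was seen in medians of log2 fold changes and in shares but not in medians of levels. All cluster sites together kept 11.0% ± 0.141, 10.1% ± 0.290 and 10.7% ± 0.283 of the chromosome's counts.

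**Figure D1:**
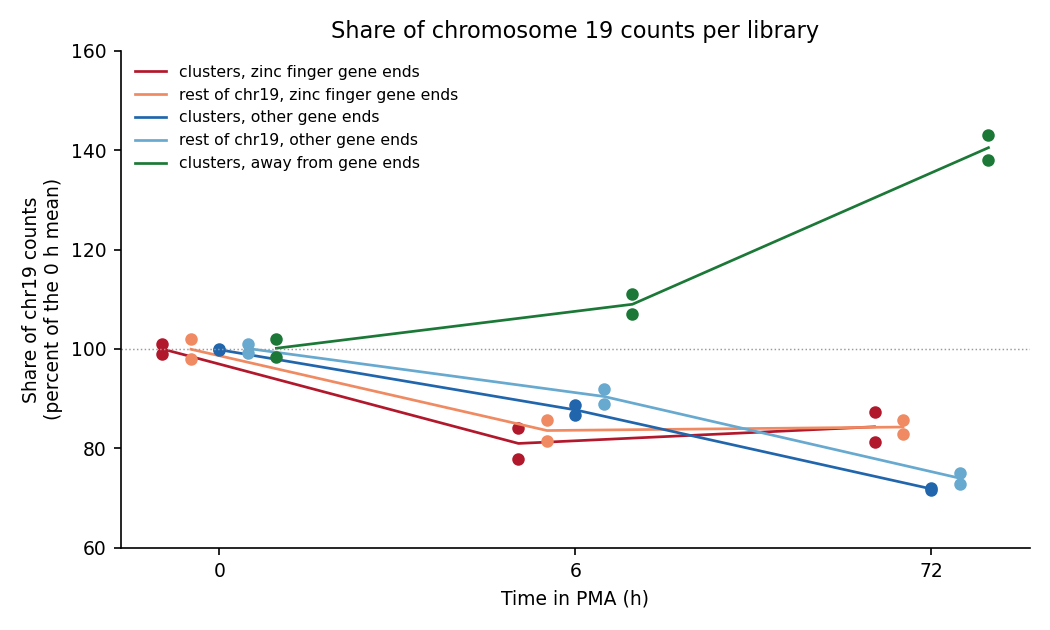
Share of chromosome 19 counts held by 5 classes of site, as a percent of the class's mean share at 0 h, for each library (points) and the mean of 2 (lines), at 0, 6 and 72 h in PMA (evenly spaced). Zinc finger ends of the clusters stood at 84.1% and 77.9% at 6 h and 81.3% and 87.4% at 72 h, while other ends of the clusters went on to 71.6% and 72.1%.

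**Figure D2:**
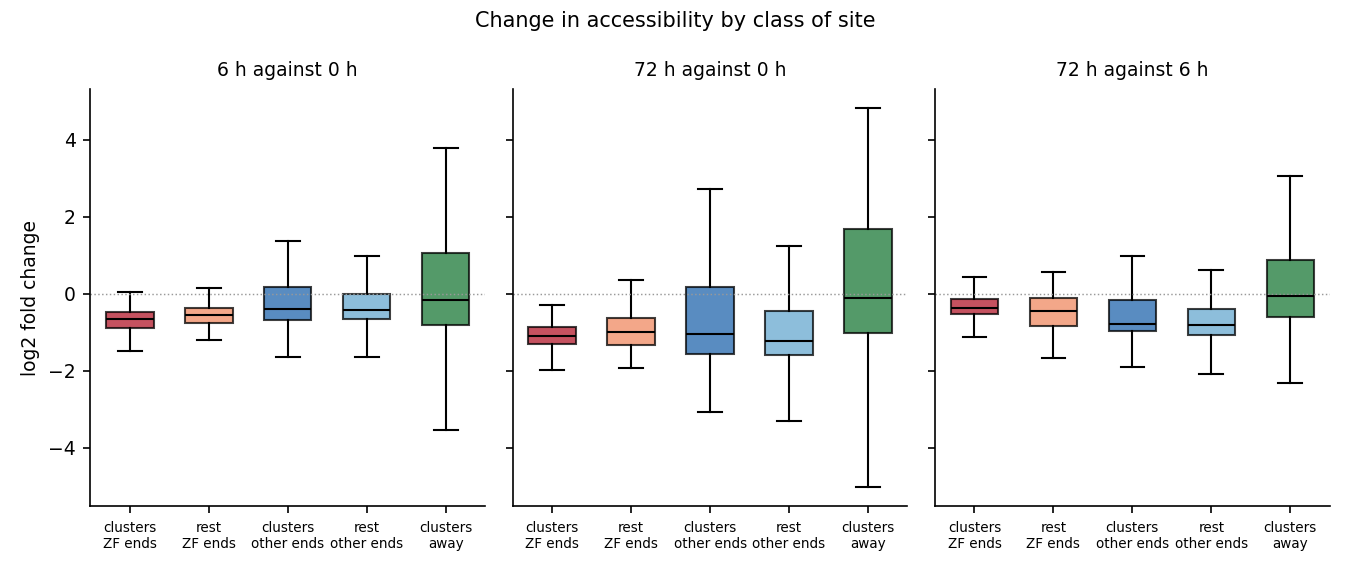
Log2 fold changes of sites by class (ZF, zinc finger) in the 3 comparisons, with the median as a line, the interquartile range as a box and whiskers to the farthest site within 1.5 box lengths. Zinc finger ends have narrow boxes below 0, with medians of -0.65, -1.09 and -0.36 (the last not below 0 with total counts, loess offsets or factors from sites with a peak in all libraries), and sites away from gene ends spread widely on both sides.

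The gap between zinc finger and other ends differed with the level of signal. Under a mean of 2 CPM, the change between 6 h and 72 h had a median of -0.07 at 18 zinc finger ends of the clusters and -0.16 at 31 other ends. Among sites with a mean of 2 to 10 CPM, the medians were -0.12 (29 sites) and -0.60 (30 sites). Between 10 and 30 CPM the medians were -0.37 (55 sites) and -0.82 (15 sites), and other ends of the rest gave -0.85 (343 sites). Above 30 CPM they were closer than between 2 and 30 CPM, at -0.87 for 14 zinc finger ends and -0.98 for 21 other ends, while other ends of the rest gave -1.07 (253 sites). The plot of late change against level shows the zinc finger ends as a tight band between 10 and 30 CPM. Sites with a peak in all 6 libraries gave a like picture: of 87 zinc finger ends of the clusters, 70 were lower at 6 h, 85 at 72 h and 31 between 6 h and 72 h, and the 45 other ends gave 27, 38 and 38. The gap at 6 h against 0 h differed with level too. Between 2 and 10 CPM the medians were -0.84 at zinc finger ends of the clusters, -0.28 at their other ends and -0.27 at other ends of the rest. Between 10 and 30 CPM they were -0.62, -0.37 and -0.47. Above 30 CPM no such gap was seen, with -0.51, -0.52 and -0.49. At 6 h the median was -0.65 both at the 89 zinc finger ends that lay at a start and at the 27 that did not, and at 72 h -1.11 and -0.95.

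**Figure D3:**
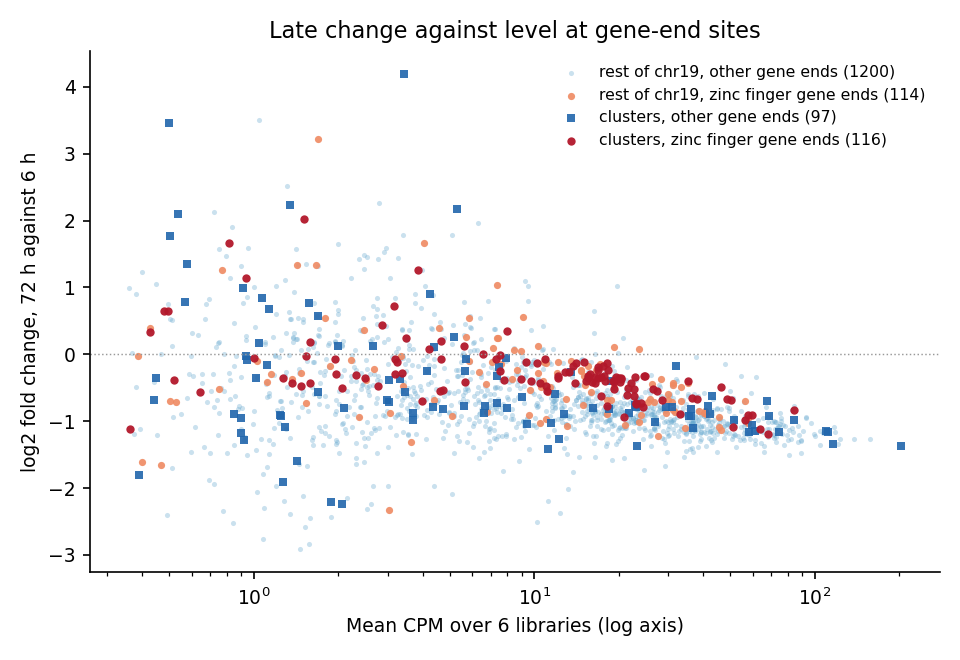
Log2 fold change between 6 h and 72 h (y) against mean CPM over the 6 libraries (x, log axis) for gene-end sites of chromosome 19, each point a site. Between 10 and 30 CPM the zinc finger ends of the clusters lie around -0.37 and the other ends of the rest around -0.85.

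In the first stretch all 32 gene-end sites belonged to zinc finger genes, and none was called higher in any comparison. By 6 h 23 were lower and by 72 h 28, with medians of -0.71 and -1.21. Of the 15 genes listed there by name, 13 had a site and 12 were lower at both times (median of the list -0.72 and -1.11), and ZNF85 was the one not called (-0.70 and -0.78, adjusted p = 0.15 and 0.059). ZNF93, whose product silences LINE-1 elements, had the strongest gene-end site at 0 h (chr19:19900045-19901719). It counted 48.1 and 45.2 CPM at 0 h, 32.6 and 34.8 at 6 h, then 23.9 and 27.0 at 72 h. The 3 times did not overlap, and the site changed by -0.47 at 6 h (SE 0.15, adjusted p = 0.016) and by -0.87 at 72 h (SE 0.15, adjusted p = 2.4e-05), though its direction at 72 h turned above 0 with loess offsets and with factors from sites with a peak in all libraries. ZNF430 counted 37.5 and 37.0, then 21.7 and 27.6, then 14.3 and 20.2 CPM. ZNF714 counted 36.7 and 32.7, then 20.9 and 22.1, then 10.9 and 15.0. ZNF431 counted 32.6 and 38.0, then 22.2 and 25.5, then 11.9 and 16. In all of them the levels stepped down at each time without overlap, and the changes at 72 h were -1.11, -1.42 and -1.34. These are the genes whose promoters are printed above.

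ZNF91, which represses SVA retrotransposons, was weaker, with 6.56 and 6.64 CPM at 0 h, 4.01 and 3.51 at 6 h, then 3.26 and 3.8 at 72 h (chr19:23395142-23395896). Its treated libraries overlapped, and the site changed by -0.83 at 6 h (SE 0.26, adjusted p = 0.014) and by -0.90 at 72 h (SE 0.25, adjusted p = 0.0028), the latter not below 0 with factors from sites with a peak in all libraries. ZNF43 changed by -1.14 and -1.52, ZNF100 by -0.80 and -1.21, and ZNF675 by -0.82 and -1.33. Of these 4, ZNF675 was called lower between 6 h and 72 h (-0.51, adjusted p = 0.020), and ZNF91, ZNF43 and ZNF100 were not (adjusted p = 0.84, 0.25 and 0.058). A weaker site 797 bases from the start of ZNF431 fell at 6 h by 1.5 on the log2 scale (SE 0.34, adjusted p = 0.0012), with 11.1 and 4.78 CPM, then 3.41 and 2.34, then 3.26 and 3.09. Its 0 h libraries differed by more than the treated ones did, yet both stood above them.

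Most listed zinc finger genes of the second stretch fell too. Of the 35 listed genes 26 had a site, of which 19 fell and 1 rose by 6 h, while 22 fell and 1 rose by 72 h (medians -0.69 and -0.98). ZNF274, which itself brings SETDB1 to the 3' ends of zinc finger genes, counted 73.9 and 64.5 CPM at 0 h, 41.6 and 39.3 at 6 h, then 27.3 and 30 at 72 h at its start (chr19:58182545-58184087). The times were apart, with changes of -0.78 (SE 0.14, adjusted p = 0.00018) and -1.27 (SE 0.14, adjusted p = 1.2e-07), the latter above 0 with loess offsets. ZNF582 fell at once: 21.1 and 17.3 CPM at 0 h, 7.33 and 6.45 at 6 h, then 6.44 and 6.58 at 72 h, with changes of -1.49 (SE 0.21, adjusted p = 6.9e-06) and -1.56 (SE 0.20, adjusted p = 7.5e-07). The treated libraries did not part by time. ZNF805 went the same way, from 25.7 and 21.2 CPM to 10.7 and 8.98 and then 9.18 and 8.72. ZNF480 counted 13.6 and 10.4, then 4.94 and 5.50, then 6.03 and 7.40 CPM, its change at 72 h being -0.83, and above 0 with factors from sites with a peak in all libraries. ZNF460 and ZNF808 stepped down at both times, by -0.79 and -0.66 at 6 h and -1.46 and -1.21 at 72 h.

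A few ends of zinc finger genes moved otherwise. ZSCAN4, a SCAN-type gene known from early embryos, had a weak site of 2.92 and 2.20 CPM at 0 h that went to 0.682 and 0.221 at 6 h and came back to 1.37 and 1.65 at 72 h. The fall at 6 h was -2.77 (SE 0.50, adjusted p = 0.00014), the rise from 6 h to 72 h 2.02 (SE 0.50, adjusted p = 0.0025), and 72 h against 0 h was not called (-0.75, adjusted p = 0.087). A site 829 bases from ZNF665 also fell and rose again, but was still lower at 72 h than at 0 h (-0.72, adjusted p = 0.044), with 7.67 and 4.68 CPM, then 2.13 and 1.20, then 2.79 and 4.62. The larger fall of ZNF480 at 72 h (-0.83) was above 0 with factors from sites with a peak in all libraries, so a fall of this size depends on the scaling. ZNF320 rose: a site inside the gene, 969 bases from its end, counted 0.585 and 0.430 CPM at 0 h, 4.60 and 2.40 at 6 h, then 4.94 and 5.94 at 72 h, with changes of 2.72 (SE 0.43, adjusted p = 2.6e-05) and 3.44 (SE 0.40, adjusted p = 1.7e-07). Across all gene-end sites of the clusters, 58 of 213 (27.2%) were lower at 6 h and lower again between 6 h and 72 h, against 33.0% of gene ends in the rest and 28.6% over the genome. A fall at 6 h with a later rise was called at 2 (0.939%), against 0.837% in the rest and 0.737% over the genome.

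The strongest sites of the second stretch were starts of housekeeping genes. At the 4 strongest the fall after 6 h was larger than that before it. The site at the joined starts of TSEN34, a subunit of the tRNA splicing endonuclease, and MBOAT7, a phosphatidylinositol remodelling enzyme (chr19:54189298-54191469), counted 332 and 297 CPM at 0 h, 217 and 209 at 6 h, then 89.6 and 74.5 at 72 h. The change was -0.57 (SE 0.12, adjusted p = 0.00062) at 6 h and -1.94 (SE 0.12, adjusted p = 1.2e-10) at 72 h, but 0.42 with loess offsets. U2AF2, a splicing factor, counted 177 and 176, then 126 and 120, then 51.3 and 45.9 CPM. CNOT3, of the CCR4-NOT deadenylase, counted 176 and 170, then 103 and 112, then 47.4 and 50. KMT5C, an H4K20 methyltransferase, counted 166 and 159, then 110 and 124, then 46.9 and 58.2. The times were apart at each of these starts, where changes at 72 h were -1.86, -1.83 and -1.62, all above 0 with loess offsets. The ribosomal protein gene RPL28 changed by -0.62 and -1.78, and a site 288 bases from RPS9 by -1.23 and -1.94. Of the 18 genes of this kind listed by name 16 had a site, with 13 lower at 6 h and 16 at 72 h (medians -0.55 and -1.67). The 12 listed genes for corepressors of KRAB proteins, TRIM28 and SETDB1 among them and all of them outside the clusters, gave 9 lower at 6 h and 12 at 72 h, with medians of -0.54 and -1.51. Of 273 gene ends in the rest of the chromosome with a mean above 30 CPM, 79.1% were lower at 6 h and 98.9% at 72 h, with medians of -0.49 and -1.57. Both lists, with medians of 74.0 and 42.0 CPM at 0 h, were thus near the background of strong gene ends. The medians of both lists were below those of the zinc finger lists at 72 h and above them at 6 h, which was not tested.

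Other ends changed more. RNF225 counted 19 and 27.6 CPM, then 6.90 and 7.90, then 2.61 and 2.95, and fell by 3.07 on the log2 scale at 72 h (SE 0.23, adjusted p = 6.7e-10). A site inside NCR1, which encodes an activating receptor of natural killer cells, went from 6.30 and 3.63 CPM to 0.511 and 1.49 and then 0.181 and 0.283, with changes of -2.12 (SE 0.42, adjusted p = 0.00031) and -4.37 (SE 0.47, adjusted p = 5.9e-08). Among gene-end sites with a mean of at least 2 CPM, rises at 6 h were led by a site 680 bases from SSC5D, a scavenger receptor gene, with 2.66 and 3.15 CPM at 0 h, 21.2 and 21.1 at 6 h, then 10.4 and 10.3 at 72 h. PTPRH, a receptor tyrosine phosphatase gene, followed the same course with 2.66 and 2.77, then 9.46 and 12.2, then 5.41 and 7.45. At 72 h a site near LOC124900420, inside ZSCAN5A, led under the same limit with 0.390 and 0.287, then 0.341 and 0.601, then 9.29 and 9.74 CPM, a late change of 4.82 (SE 0.37, adjusted p = 9e-10).

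Away from gene ends the clusters split both ways. Of the 407 such sites tested, 95 rose and 89 fell by 6 h, 147 rose and 133 fell by 72 h, and 94 rose and 84 fell between the treated times, with medians of -0.16, -0.10 and -0.06. The rest of the chromosome gave 24.0% higher and 17.3% lower at 6 h and 32.2% and 35.5% at 72 h, beside 23.3%, 21.9%, 36.1% and 32.7% in the clusters. Between 6 h and 72 h the clusters had 23.1% higher and 20.6% lower, the rest 14.4% and 27.8%. The split moved with scaling: with factors from sites with a peak in all libraries, gains and losses in the clusters were 112 and 56 by 6 h, 199 and 43 by 72 h, then 176 and 20 between the treated times, while with loess offsets 120 rose and 160 fell by 72 h. With total counts they were 176 and 96 at 72 h and 132 and 41 between 6 h and 72 h. As a share of the chromosome's counts these sites rose from 3.29% ± 0.0778 (SD, n = 2) to 3.58% ± 0.0919 and 4.63% ± 0.127. Rise at 6 h followed by fall was seen at 23 of them (5.65%), against 5.94% in the rest and 4.73% over the genome.

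In the first stretch sites away from gene ends fell more often than they rose at 6 h. Of 64 tested, 30 fell and 10 rose by 6 h, while 29 fell and 16 rose by 72 h, with medians of -0.97 and -0.76 (the latter 0.21, with 14 falls and 21 rises, under factors from sites with a peak in all libraries). In the second stretch 59 of 343 were lower and 85 higher at 6 h. At 53 of the 64 sites the first 0 h library exceeded the second, which was so at 184 of the 343. Without the first 0 h library 24 of 65 were lower at 6 h, and without the second 28. The median of these sites was below that of sites away from gene ends in the rest of the chromosome under all 14 fits, by 0.73 to 1.11 at 6 h and by 0.47 to 0.84 at 72 h. In this difference, too, a scaling factor per library cancels, so the 14 fits are not separate checks.

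An interval of 182.1 kb between ZNF429 and ZNF100 (chr19:21540668-21722771), picked out after the values were seen, held 12 sites, 11 of them away from gene ends, of which 10 were lower at 6 h and 10 at 72 h, and none higher. Its medians were -1.91 and -1.63. At all 11 of its sites away from gene ends the first 0 h library exceeded the second, so the size of these falls depends on that library. The site at chr19:21611914-21612618 counted 10.9 and 8.89 CPM at 0 h, 0.852 and 1.01 at 6 h, then 0.983 and 1.20 at 72 h, with changes of -3.36 (SE 0.32, adjusted p = 3e-08) and -3.16 (SE 0.28, adjusted p = 5.6e-09). It closed by 6 h and stayed low in all 4 treated libraries. Another, at chr19:21625119-21625794, went from 9.42 and 3.73 CPM to 0.0852 and 0.727 and then 0.595 and 0.566. A broader one, at chr19:21601965-21603403, kept part of its signal, with 21.4 and 16.8, then 6.05 and 7.46, then 6.18 and 6.67. The site at chr19:21573701-21574594 was not called: 8.38 and 5.73, then 5.88 and 6.39, then 6.23 and 6.74 CPM, with changes of -0.18 and -0.11. A site beyond ZNF431, at chr19:21197525-21198144, closed in the same way, from 8.51 and 3.97 CPM to 0.767 and 0.411 and then 1.03 and 0.943. Outside the interval the first stretch still had 21 of 53 such sites lower and 10 higher at 6 h. The site at chr19:21592871-21594641 went from 30.4 and 17 CPM to 12.8 and 10.3 and was at 15.8 and 17.6 at 72 h, and its change at 72 h, -0.50, was above 0 under both loess offsets and factors from sites with a peak in all libraries.

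The body of ZNF444, a SCAN-type gene of the second stretch, opened and closed again. Of its 8 sites, also picked out after their values were seen, 7 were higher at 6 h and 7 lower between 6 h and 72 h, with medians of 3.62 and -3.52. The site at chr19:56158813-56159842 counted 1.88 and 1.19 CPM at 0 h, 54.4 and 38.6 at 6 h, then 2.35 and 4.24 at 72 h. That was a change of 4.94 (SE 0.30, adjusted p = 9.1e-11) at 6 h, the largest rise among tested sites of the clusters at that time. Other smaller sites within the gene had the same shape: 0.455 and 0.621, then 8.78 and 8.57, then 0.440 and 0.566 CPM at one, and changes of 4.24 and 4.29 at 6 h at a further pair. The remaining rises in the gene were smaller, at 3.26, 2.40 and 1.34.  The inner start of the gene was not called at 6 h, with 50.9 and 44.8 CPM at 0 h and 42.4 and 38.5 at 6 h (-0.24, adjusted p = 0.21).

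ZNF254, at the far end of the first stretch, lost signal at its outer end and inner start and gained it in its body. Its gene-end site counted 29.2 and 27.2 CPM, then 16.3 and 17.8, then 11.2 and 15.7, and the inner start in the RefSeq entry 29.8 and 33.2, then 19.2 and 18.7, then 10.2 and 14.1. Between them the site at chr19:24054053-24055100 rose from 1.69 and 0.430 CPM to 9.20 and 10.7 at 6 h and 12.1 and 17 at 72 h, with changes of 3.33 (SE 0.36, adjusted p = 2.4e-07) and 3.87 (SE 0.36, adjusted p = 7.4e-09). The site at chr19:24060462-24061184 went from 0.520 and 0.239 to 8.95 and 3.95 and then 4.11 and 4.72. Of the 7 sites of the gene 5 were higher and 2 lower at 72 h (71.4% and 28.6%), against 38.2% and 29.2% over the genome. Inside ZNF841 in the second stretch a site rose late instead, from 1.69 and 0.908 CPM to 0.937 and 0.601 and then 4.32 and 5.16.

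**Figure D4:**
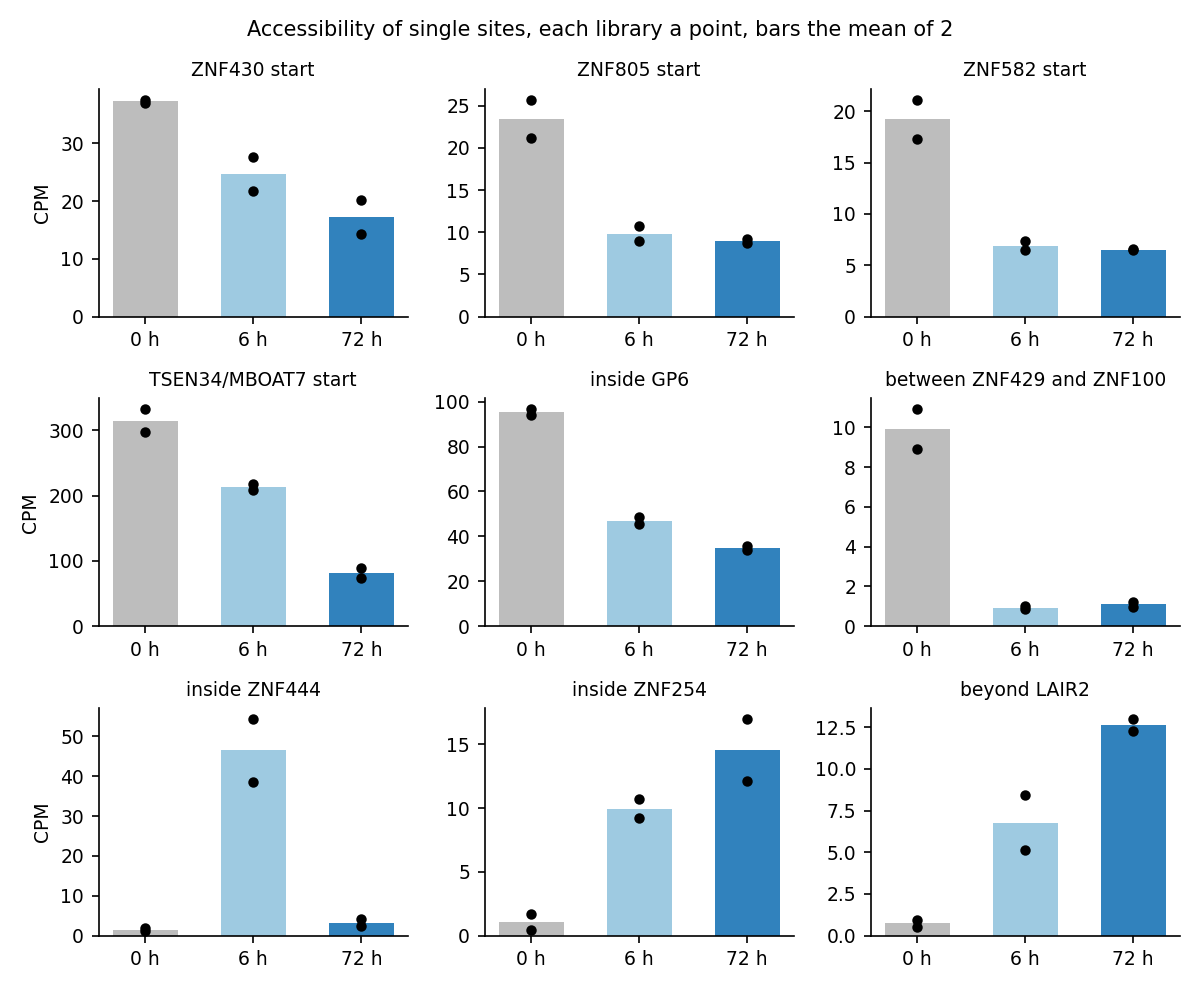
CPM of 9 sites at 0, 6 and 72 h, with each library as a point and the mean of 2 as a bar; each panel has its own axis from 0. ZNF805 and ZNF582 fall by 6 h and stay, TSEN34/MBOAT7 falls on to 89.6 and 74.5, the ZNF444 site is high at 6 h only (54.4 and 38.6), and the sites inside ZNF254 and beyond LAIR2 open.

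The leukocyte receptor complex opened late. This block of immunoglobulin-like receptor genes, with the LILR, LAIR and KIR families, is normally used by myeloid, lymphoid and natural killer cells. From LILRB3 to NCR1 (721.9 kb) it held 102 sites, 98 tested, of which 26 rose and 6 fell by 6 h, while 51 rose and 17 fell by 72 h (medians 0.41 and 1.24). The rises were 26.5% and 52.0% of its tested sites, against 23.4% and 38.2% over the genome, so the 6 h share was near the background. The falls were 6.12% and 17.3%, against 16.8% and 29.2%. Signal was low, with a median of 0.743 CPM at 0 h. Cluster sites away from gene ends with a mean under 2 CPM had 38.7% higher and 19.6% lower at 72 h. In the block's LAIR2 to KIR3DL2 segment 36 of 51 tested sites were higher and 1 lower at 72 h, and 31 higher and 1 lower between 6 h and 72 h, with medians of 1.99 and 1.29. The share called higher at 72 h was 70.6% there, gene-end sites included, against 26.6% of all tested cluster sites, the segment among them, and 38.2% over the genome. Away from gene ends the shares were 36.1% in the clusters and 41.4% over the genome. The segment was chosen after its values were seen. Of 22 listed genes in and around the complex 9 had a site at a gene end, with 2 lower and none higher at 6 h and 4 higher and 2 lower at 72 h. That list also holds GP6, OSCAR, TARM1 and VSTM1, which lie outside the block, and the 2 lower genes were NCR1 and GP6.

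Single sites of the complex started from almost nothing. One 12600 bases from LAIR2 counted 0.520 and 0.955 CPM at 0 h, 5.11 and 8.44 at 6 h, then 13.0 and 12.3 at 72 h, with changes of 3.19 (SE 0.34, adjusted p = 1.7e-07) and 4.04 (SE 0.33, adjusted p = 1.6e-09). A neighbour 30667 bases from LAIR2 went from 0.650 and 0.0955 to 1.96 and 1.68 and then 6.31 and 8.16. The next, 10543 bases from LAIR2, went from 0.520 and 0.191 to 0.852 and 1.49 and then 6.21 and 4.65. Near LILRB2, an inhibitory receptor gene of myeloid cells, a site counted 0.650 and 0.573, then 5.96 and 5.66, then 9.80 and 12.2 CPM. The 72 h libraries were the highest at each, which the choice of these sites as the largest rises without overlap fixed against 0 h. LILRB5 had a site near its end that was called higher at 72 h and not at 6 h: 1.88 and 1.67, then 1.87 and 3.07, then 10.6 and 12.9 CPM (2.73 at 72 h, SE 0.28, adjusted p = 3.6e-08). A site within KIR2DL1 behaved alike, from 0.715 and 0.334 to 1.36 and 0.696 and then 4.58 and 6.01. Against this trend a site 27164 bases from KIR3DL3 closed, from 16.7 and 17.6 CPM to 5.88 and 6.26 and then 2.66 and 1.82, with changes of -1.49 (SE 0.23, adjusted p = 2.1e-05) and -2.94 (SE 0.24, adjusted p = 1.7e-09). A site inside PPP1R12C, outside the complex, fell at 72 h by 2.78 on the log2 scale.

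**Figure D5:**
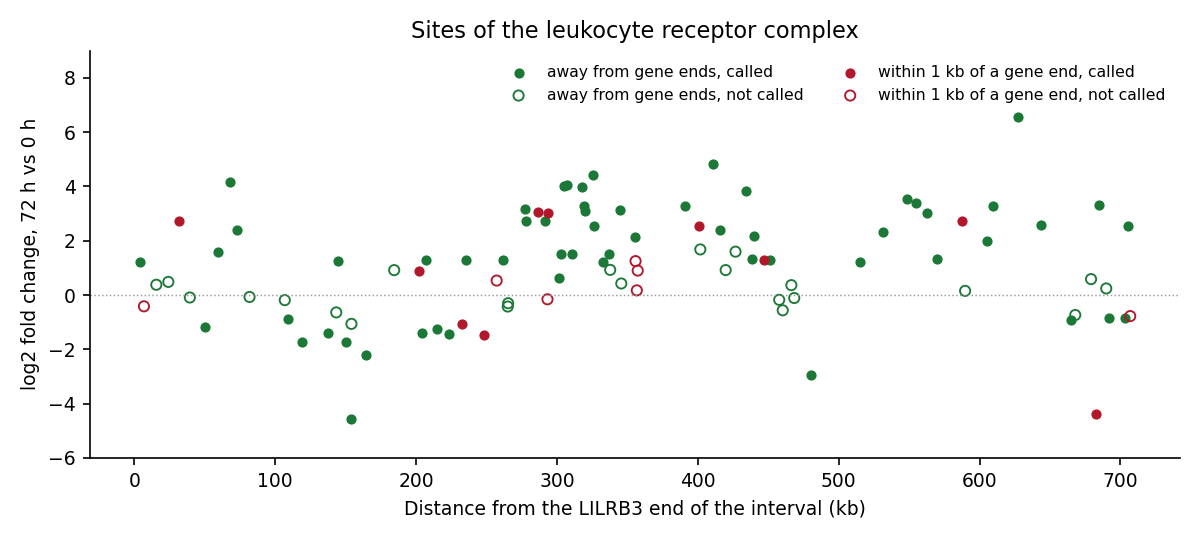
Log2 fold change at 72 h against 0 h (y) for the 98 tested sites from LILRB3 to NCR1 by distance along the block in kb (x); filled points were called at an adjusted p under 0.05, open points were not, and colour separates gene-end sites from the others. Most called sites lie above 0 (51 of 68), and the called falls lie mostly towards either end of the block.

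GP6, beside the complex, encodes the collagen receptor of platelets and megakaryocytes. Its strongest site lay within the gene at chr19:55026712-55028537 and counted 94.1 and 96.6 CPM at 0 h, 48.7 and 45.4 at 6 h, then 33.9 and 35.6 at 72 h. The changes were -1.02 (SE 0.14, adjusted p = 3.2e-06) and -1.46 (SE 0.14, adjusted p = 8.6e-09), the latter 0.07 with loess offsets. The start of GP6 went from 43.6 and 46.3 CPM to 21.5 and 32.0 and then 22.4 and 25.6, and its change at 72 h, -0.91, was above 0 with loess offsets and with factors from sites with a peak in all libraries. From ZIM2 to USP29, the imprinted PEG3 domain, the table lists no site. Of the 9 tested sites from NLRP9 to NLRP5, 5 were higher (55.6%) and none lower at 72 h, against 38.2% higher and 29.2% lower over the genome. Signal there was low, with a median of 0.655 CPM at 0 h. Among cluster sites away from gene ends with a mean under 2 CPM, 38.7% were higher and 19.6% lower.

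Peaks called per library by the authors gave another view of the clusters. The clusters held 320 and 322 peaks at 0 h, 287 and 369 at 6 h, then 461 and 501 at 72 h. The lowest number belonged to the library with the fewest counts (12258890). As a share of the chromosome's peaks the clusters held 10.7% and 10.0%, then 9.82% and 9.21%, then 9.46% and 10.0%. Gene-end sites with a peak numbered 154 and 155, 141 and 158, and 164 and 176 of 213, and 132 had a peak in all 6 libraries. Away from gene ends the numbers were 148 and 152, 121 and 186, and 261 and 290 of 417.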

How the data were processed

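ATAC-seq libraries of K562 cells at 0, 6 and 72 h in PMA, 2 per time, were analysed from the deposited files. The submitters' processing notes name Trim Galore 0.4.3, BWA 0.7.17, SAMtools 1.9, deepTools 3.0.1, MACS2, bedtools 2.26, DESeq and hg38. How the sites were merged and which read filters were used is not given in the sources used here. The authors deposited raw read counts per site and library, their log2 fold changes and adjusted p-values (both adjusted p-value columns hold the same values, so none was used), and class names. Their peak lists per library, per the file headers' standard layout, hold a score, a fold enrichment ratio and −log10 p and q values, and were used for presence and for a −log10 q limit.

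Sites with too few counts (edgeR's filterByExpr, minimum count 10) were left out, which removed 3376 of 181135 and 10 of the 630 cluster sites. The other 177759 were fitted together in edgeR 4.0.16 (R 4.3.3) with TMM scaling and the quasi-likelihood test, p-values being adjusted by Benjamini-Hochberg over all of them and called under 0.05. The biological coefficient of variation was 0.166. CPM use the TMM-scaled library size. Alternatives were other scalings (RLE, total counts, loess offsets from limma 3.58.1, factors from sites with a peak in all 6 libraries), no filter, DESeq2 1.42.0, a stricter call, a replicate block, other reaches of a gene end and leaving out each library. In simulated counts of 173072 sites, 100 were changed by 1 and 100 by 2 on the log2 scale, and the rest were left unchanged. There 20% and 26% of changes of 1 were called at 6 h and 72 h, and 78% and 81% of changes of 2. In the data 40.1% and 67.4% of sites were called, which makes the adjusted threshold less strict. The simulated shares therefore do not measure how many changes were found in the data.

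Gene positions came from the RefSeq table of GRCh38.p14, and a zinc finger gene is one whose symbol begins ZNF, ZFP, ZSCAN, ZKSCAN, ZIM or ZIK, or is PEG3. Sites named are drawn from those with the 4 largest changes in each direction at 6 h and at 72 h, and the 2 largest between them (mean CPM of at least 2, groups not overlapping), the 4 with most signal at 0 h in each stretch, for gene ends and other sites apart, and the sites of listed genes. Members and lists were chosen with earlier results of these data known.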

Additional observations from a re-analysis of the deposited data

How the results depend on the processing

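Counts of called sites depended on scaling, on the call and on how sites were classed. With TMM factors from sites with a peak in all 6 libraries, gene-end sites called lower numbered 41 at 6 h, 43 at 72 h and 20 between 6 h and 72 h (116, 160 and 82 with TMM over all sites), and other sites higher between 6 h and 72 h 176 (94). Between 6 h and 72 h, gene-end sites lower were 44 with total counts and 32 with loess offsets. The stricter call (adjusted p under 0.01 and a log2 change above 1) left 21 gene-end sites lower at 6 h and 22 between 6 h and 72 h, and 56 other sites higher between 6 h and 72 h, where DESeq2 gave 54. With gene ends reaching 5000 bases, other sites higher were 50 at 6 h and 90 at 72 h, and gene-end sites lower between 6 h and 72 h were 128. Among sites nearest a zinc finger gene, gene-end sites lower were 99 at 72 h and 31 between 6 h and 72 h, and other sites higher 32, 55 and 35 in the 3 comparisons.

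Shares of chromosome 19 counts at 0, 6 and 72 h for sites nearest a zinc finger gene were 5.11%, 4.44% and 4.89% over all sites, 3.90%, 3.16% and 3.29% at gene ends and 1.20%, 1.28% and 1.61% elsewhere. With a reach of 500 bases they were 7.46%, 6.20% and 5.63% at gene ends and 3.58%, 3.92% and 5.04% elsewhere, and with 5000 bases 9.20%, 8.27% and 8.02%, and 1.83%, 1.85% and 2.65%. Peaks at 0 h averaged 304.5 per library at a −log10 q of at least 5 (321 without that limit).

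Leaving out each library in turn, gene-end sites lower ranged over 79 to 114, 137 to 164 and 50 to 91 in the 3 comparisons, and other sites higher over 78 to 96, 115 to 151 and 54 to 109. The share of all cluster sites ranged over 10.90% to 11.10% at 0 h, 9.89% to 10.30% at 6 h and 10.50% to 10.90% at 72 h, that of gene ends over 7.71% to 7.77%, 6.36% to 6.69% and 5.91% to 6.17%, and that of other sites over 3.24% to 3.35%, 3.52% to 3.65% and 4.54% to 4.72%. Same-numbered libraries deviated together only weakly (r across sites 0.082, 0.0533 and 0.0854). Their deposited names end alike at all times, and whether they share a culture or a batch cannot be told from these correlations. With a replicate block, gene-end sites lower were 123, 162 and 92, and other sites higher 101, 151 and 99.

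Of 1596 values for 56 named sites, 22 changed sign at a comparison that was called with TMM over all sites. All 22 came with loess offsets or with factors from sites with a peak in all libraries. Changes of sign at comparisons not called with TMM over all sites were not counted. With loess offsets the log2 change at 72 h became 0.418 at TSEN34/MBOAT7, 0.27 at ZNF93, 0.134 at U2AF2 (0.138 at 6 h), 0.12 at CNOT3, 0.331 at KMT5C (0.177 at 6 h), 0.07 inside GP6, 0.162 at the GP6 start, 0.069 at ZNF274, 0.437 at the inner start of ZNF444 (0.386 between 6 h and 72 h) and 0.068 at the ZNF429 to ZNF100 site with 30.4 CPM. With factors from shared peaks it became 0.092 at ZNF93, 0.46 at that ZNF429 to ZNF100 site, 0.064 at ZNF91, 0.132 at ZNF480, 0.063 at the GP6 start and 0.186 at ZNF444 (0.134 between 6 h and 72 h). The inner start of ZNF254 moved by 0.004 and 0.03 between 6 h and 72 h under these scalings. The cause was not tested.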

Other observations

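Class names in the authors' deposited table did not follow the direction of change at cluster sites. Of 17 sites named downLate, 13 had a positive log2 fold change at 72 h in the authors' deposited table (median 2.289), and of 58 named upLate 34 did. Among 496 sites named static, 252 were called lower and 90 higher at 72 h in the fit described above. The signs of the authors' deposited table and of that fit were equal at 484 of the 496.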
